A study of Homo sapiens with 6 samples.

Results

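Accessible chromatin of SLFN11-knockout cells was compared with that of their SLFN11-positive parent cells after camptothecin, in the 2 of 6 libraries whose file codes mark 4 h of treatment. The cells are CCRF-CEM, an established human T lymphoblast leukaemia line, and open DNA was mapped by ATAC-seq, an assay that uses a transposase to insert sequencing tags where chromatin is accessible. The parent group is wild-type for SLFN11 and the knockout group carries the SLFN11 gene knockout; both received 100 nM camptothecin, and both were grown in the same serum-supplemented medium. The remaining 4 libraries are parent and knockout cells with DMSO, the solvent, or with the drug for 2 h. Each group is 1 library and the knockout is 1 line, so knockout and clone cannot be told apart and no comparison here has a replicate spread or a p-value. Intervals are Wilson 95% intervals, which cover counting error only, and neighbouring peaks and amplified reads are not independent.

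The condition of each list was taken from the code in its file name and peak identifiers, matched to the code in the sample titles. Codes and sample records disagreed for all 6 files (0 of 6 matched). The pair compared here is 4 h by code, but both files are recorded under samples treated for 2 h. Genotype, drug and dose are the same under either placement. The pair recorded as 4 h consists of the files coded DMSO, and its values, where computed, are given for the main results that they turn.

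SLFN11 is a protein that is recruited to stressed replication forks, blocks replication and sensitises cells to DNA-damaging drugs. Camptothecin traps topoisomerase I on DNA, and forks that meet the trapped enzyme stall or break. The series title names chromatin remodelling and immediate early genes, which are transcribed within minutes of a stimulus, as the processes under study. Peaks are given by hg19 position. Genes, T cell markers and SLFN11 itself were not located on them, because no hg19 annotation was used here, and no hg19 sequence was read.

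Parent cells had more and wider accessible regions than knockout cells in this pair. After merging, the parent list counted 21617 peaks (autosomes and X) and the knockout list 19167, a log2 ratio of knockout to parent of -0.17 (-0.20 to -0.15). Parent peaks covered 11.5 Mb and knockout peaks 7.79 Mb. Median width was 487 bp in the parent list and 352 bp in the knockout list. Placed by the recorded samples, the 4 h pair has the opposite direction, with a log2 ratio of 0.44. Its parent peaks covered 5.69 Mb with a median width of 353 bp, and its knockout peaks 8.20 Mb with 374 bp. Limiting both lists to a -log10 q of at least 5, a stricter significance limit than that of the authors' peak caller, moved the ratio to -0.36.

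Most regions were open in both genotypes. Of the 25295 regions in the union of the pair, 15042 held peaks of both lists (59.5%, 58.9 to 60.1%). In the parent list 15089 peaks overlapped a knockout peak by at least 1 bp, and 6528 did not (30.2%, 29.6 to 30.8%); these are called parent-only below. In the knockout list 3725 peaks did not overlap a parent peak (19.4%, 18.9 to 20.0%) and are called knockout-only. The names refer to this pair of lists and say nothing of the other libraries. A share of 30.2% of parent peaks and 19.4% of knockout peaks is thus the background against which the chromosomes and classes below are read. Counting a peak as shared when the other list has one within 1 kb left 5946 parent-only and 3428 knockout-only peaks. With both lists cut to the 19167 most significant peaks, 4681 parent peaks (24.4%) and 4308 knockout peaks (22.5%) differed.

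Shared regions were wider in parent cells. Among 14615 regions with exactly 1 peak in each list, the parent peak was the wider one in 81.2% and the knockout peak in 18.5%. Median widths were 602 bp in the parent and 410 bp in the knockout list, with a median ratio of 1.34. Highest summits lay a median of 43 bp apart, and 55.8% of them within 50 bp. A parent peak overlapped more than 1 knockout peak in 388 cases, whereas a knockout peak overlapped more than 1 parent peak in 47.

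Summit pileups of shared regions were higher in the parent library. The number of reads at a summit and its local background were recovered from the fold enrichment and p deposited for each entry. In the 14615 paired regions the median summit pileup was 45 reads in the parent library and 21 in the knockout library. The median local background of the same regions was also higher in the parent library, at 4.06 reads against 2.50. The lowest background of a list, which depends on sequencing depth and on read extension, was 1.26 in the parent and 1.36 in the knockout library. Pileups are not scaled between libraries. The part of this difference in the missing and added peaks was not tested.

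Differing peaks were mainly narrow and low in both genotypes. Parent-only peaks had a median width of 253 bp and a median fold enrichment over background of 4.70, against 609 bp and 8.47 for the shared peaks of the same list. Knockout-only peaks had a median width of 201 bp and a median fold of 4.60, against 406 bp and 6.07. Their median summit pileup was 14 reads (parent-only) and 12 reads (knockout-only), so the presence or absence of many rests on few reads. Of the parent-only peaks 46.8% and of the knockout-only peaks 64.9% had a -log10 q under 5. Parent-only peaks nevertheless included 2459 of at least 300 bp (37.7%, 36.5 to 38.9%), and knockout-only peaks 706 (18.95%, 17.7 to 20.2%). Of the shared peaks 85.2% in the parent list and 68.1% in the knockout list were that wide. More than 1 summit was listed in 10.7% of parent-only and in 2.98% of knockout-only peaks. With the -log10 q limit of 5 applied to the counted list and not to the other list, 3470 parent peaks (20.0%) and 1308 knockout peaks (9.68%) still had no counterpart.

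**Figure D1:**
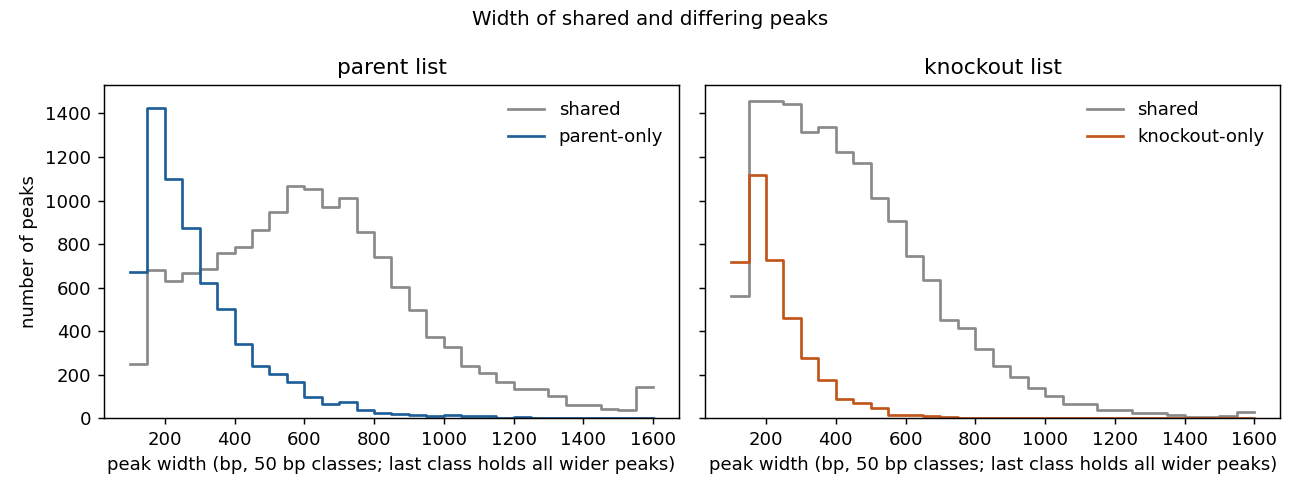
Number of peaks (vertical axis) by peak width in bp (horizontal axis, 50 bp classes), for the parent list on the left and the knockout list on the right, libraries coded camptothecin 4 h; grey lines are shared and coloured lines differing peaks. Differing peaks gather at the narrow end, with medians of 253 bp (parent-only) and 201 bp (knockout-only), and shared parent peaks lie to the right of shared knockout peaks (609 against 406 bp).

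Weak peaks differed far more often than strong ones. In quartile 1 of the parent list by fold enrichment, the lowest, 65.3% (64.0 to 66.6%) were parent-only, and in quartile 4 2.22% (1.86 to 2.65%). Corresponding shares in the knockout list were 37.3% (35.9 to 38.7%) and 3.11% (2.65 to 3.64%). By width, parent-only shares fell from 66.3% in the narrowest to 3.28% in the widest quartile, and knockout-only shares from 45.4% to 1.21%. Quartile 4 of the parent list by fold still contained 120 parent-only peaks, and that of the knockout list 149 knockout-only peaks.

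**Figure D2:**
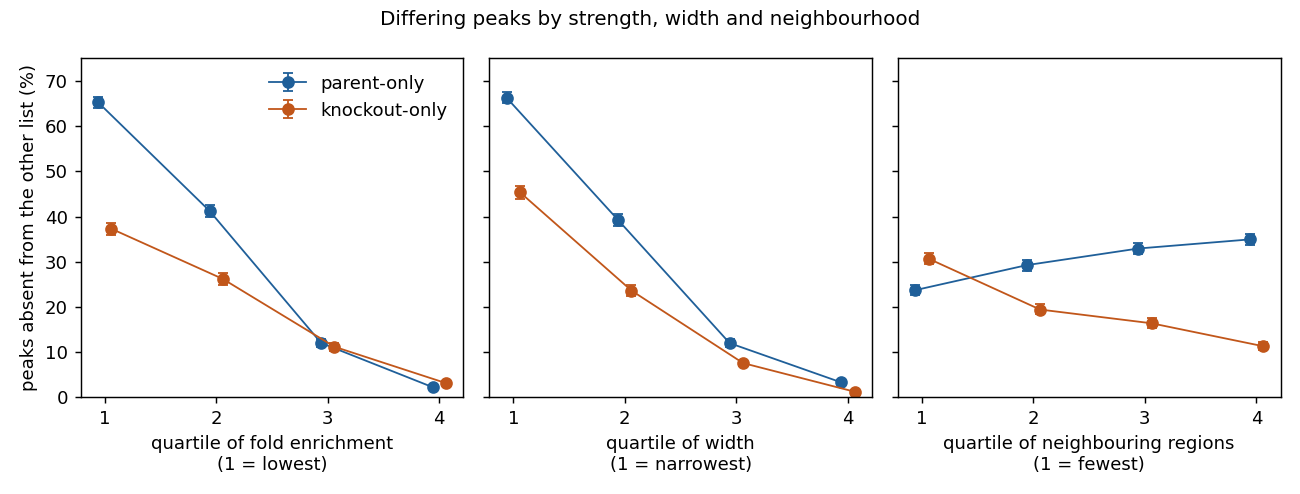
Share of peaks absent from the other list in percent (vertical axis) by quartile of fold enrichment, of width and of the number of neighbouring regions (horizontal axes, quartile 1 lowest), with Wilson 95% intervals; blue is the parent and orange the knockout list. Both shares fall with strength and width, whereas with neighbouring regions the parent-only share goes from 23.7% to 34.9% and the knockout-only share from 30.7% to 11.3%.

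The genotypes differed in which chromosomes held their extra peaks. Parent-only shares were highest on chromosome 22 (41.0%, 36.7 to 45.4%), chromosome 17 (38.5%, 35.9 to 41.3%), chromosome 21 (38.1%, 32.4 to 44.1%) and chromosome 19 (37.6%, 35.0 to 40.2%), and lowest on chromosome 4 (22.2%, 19.6 to 24.9%). Chromosomes 17, 19 and 22 are rich in genes, and chromosomes 4, 13 and 18 are poor in them. Knockout-only shares went the other way. They were lowest on chromosome 19 (4.72%, 3.51 to 6.32%), chromosome 17 (6.38%, 4.91 to 8.25%) and chromosome 22 (7.03%, 4.69 to 10.4%), and highest on chromosome 18 (35.3%, 30.5 to 40.3%) and chromosome 4 (27.8%, 25.1 to 30.6%). Chromosome 21 was an exception to this opposition, since its knockout-only share of 25.6% (20.2 to 31.7%) was also above the 19.4% of the whole list. Some chromosomes were below both whole-list shares, such as chromosome 12, with 26.9% (24.3 to 29.6%) parent-only and 17.1% (14.9 to 19.7%) knockout-only. On 21 of 23 chromosomes the parent-only share was the larger one, and on chromosomes 4 and 18 the knockout-only share. Chromosome 13, also poor in genes, did not cross, with 25.2% (21.4 to 29.4%) parent-only and 24.3% (20.6 to 28.5%) knockout-only. Its values were much like those of chromosome 5 (26.8% and 26.0%) and chromosome 8 (25.8% and 25.4%).

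Peak numbers also differed by chromosome. Chromosome 19 held 1327 parent and 890 knockout peaks (log2 ratio -0.58, -0.70 to -0.45), chromosome 17 held 1227 and 831 (-0.56, -0.69 to -0.44), and chromosome 22 held 488 and 313 (-0.64, -0.85 to -0.44). On chromosome 4 the knockout list, although shorter in all, was the longer one, with 1041 peaks against 938 (0.15, 0.02 to 0.28). Chromosome 18 had 360 knockout and 319 parent peaks (0.17), with an interval of -0.04 to 0.39 that includes 0. Over the 23 chromosomes the interval of the ratio lay below 0 on 13, above 0 on chromosome 4 and included 0 on 9. Intervals of the log2 ratios treat the lists as separate counts, although most regions are shared. An interval that includes 0 therefore does not show equal numbers. Chromosome 18 had 127 knockout-only and 88 parent-only peaks, and chromosome 2 had 367 and 455. Chromosome 3 held 1193 peaks in each list. In the pair recorded as 4 h, coded DMSO, the directions of chromosomes 19, 17 and 22 are the opposite, with log2 ratios of 0.43, 0.57 and 0.60. Chromosomes 4 and 18 keep their direction in that pair, at 0.29 and 0.50. In that pair the knockout list was the longer one, and the knockout-only share the larger one, on 23 of 23 chromosomes.

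**Figure D3:**
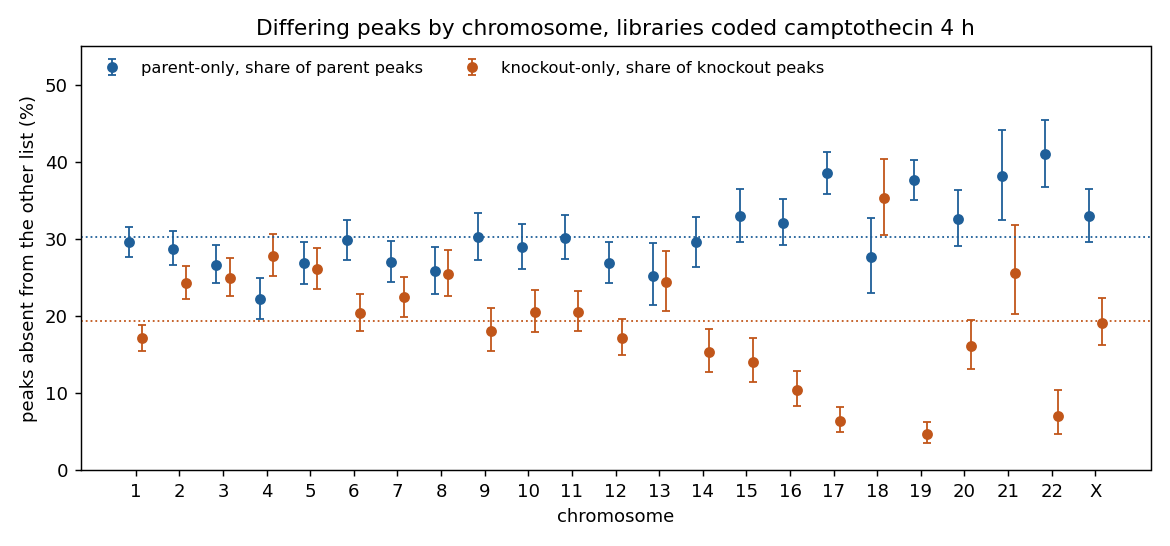
Share of parent peaks absent from the knockout list (blue) and of knockout peaks absent from the parent list (orange), in percent (vertical axis), on each chromosome (horizontal axis), libraries coded camptothecin 4 h; bars are Wilson 95% intervals and dotted lines the shares over all chromosomes, 30.2% and 19.4%. The 2 shares lie farthest apart on chromosomes 17, 19 and 22 and cross on chromosomes 4 and 18.

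Shared peaks followed the chromosomes in the same opposed way within each list. On chromosome 19 the median summit pileup of regions with 1 peak in each list was 58 reads in the parent library, against 36 on chromosome 4. In the knockout library it was 20 reads on chromosome 19 and 23 on chromosome 4. Parent peaks were the wider ones in 93.8% of the 808 such regions on chromosome 19 and in 68.6% of the 701 on chromosome 4. Median widths on chromosome 19 were 636 bp in the parent and 379 bp in the knockout list, and on chromosome 4 they were 554 and 445 bp. Chromosomes 17 and 22 resembled chromosome 19, with parent pileups of 54 and 49 reads and a knockout pileup of 19 on each. Base composition was not examined, and its part in these values was not tested.

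The opposition of chromosomes 19 and 4 was also seen with narrow peaks removed. Without peaks of 170 bp or less, the parent-only share was 37.2% on chromosome 19 and 22.1% on chromosome 4, and the knockout-only share 4.34% and 25.5%. In lists of equal length, an alternative added after the data were seen, the parent-only shares were 32.2% and 16.7% and the knockout-only shares 5.39% and 32.2%.

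For chromosome 19 the share of peaks was highest in the parent 4 h list and lowest in the knockout 4 h list among the 6 lists. Chromosome 19 held 6.14% (5.83 to 6.47%) of the parent peaks coded 4 h, against 4.91% (4.56 to 5.27%) in the parent DMSO list and 5.38% (5.10 to 5.68%) in the parent 2 h list. In knockout cells it held 4.86% in the DMSO list, 4.92% in the 2 h list and 4.64% (4.35 to 4.95%) in the 4 h list. The interval of the parent 4 h list does not meet those of the other 5 lists. The interval of the knockout 4 h list overlaps those of the other knockout lists and of the parent DMSO list. Chromosome 4 held 5.64% (DMSO), 4.64% (2 h) and 4.34% (4 h) of the peaks in parent cells, the highest and the lowest of the 6 values among them, and 5.09%, 5.08% and 5.43% at the same codes in knockout cells. With all 6 lists shortened to their 14205 most significant peaks, chromosome 19 held 6.99% of the parent 4 h list (6.58 to 7.42%) and 4.86% of the knockout 4 h list (4.52 to 5.23%). The other 4 lists were then between 4.91% and 6.22%, and the interval of the parent 2 h list (5.83 to 6.63%) met that of the parent 4 h list. Without peaks of 170 bp or less the intervals of these lists also met, at 5.82 to 6.49% for parent 4 h and 5.25 to 5.87% for parent 2 h. By the recorded samples the parent values in the order DMSO, 2 h and 4 h would read 5.38%, 6.14% and 4.91%, and the knockout values 4.92%, 4.64% and 4.86%.

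**Figure D4:**
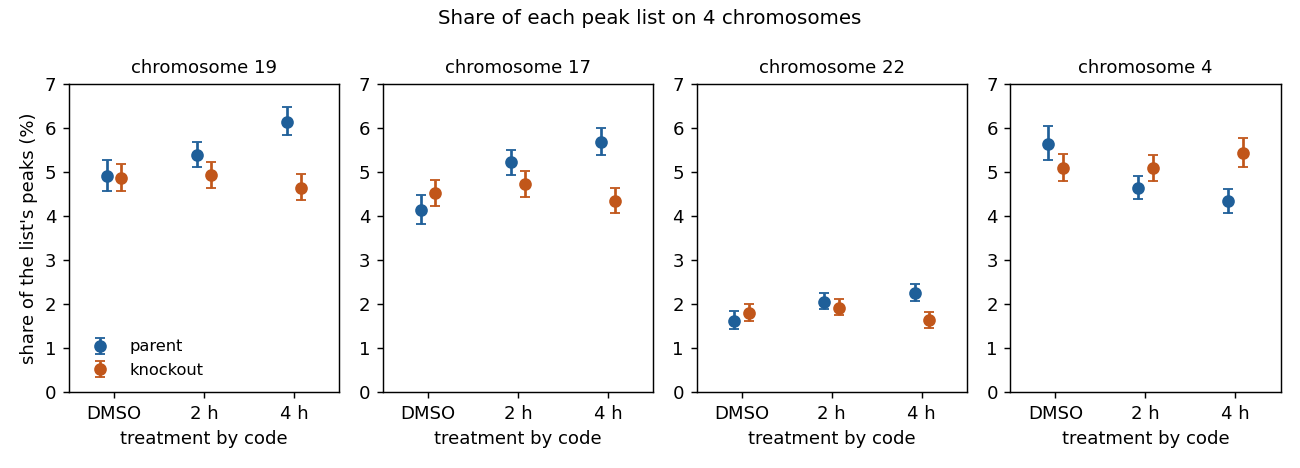
Share of each list's merged peaks on chromosomes 19, 17, 22 and 4 in percent (vertical axes) for the lists coded DMSO, 2 h and 4 h of camptothecin (horizontal axes); blue is parent, orange is knockout, points are single libraries and bars Wilson 95% intervals. At 4 h the genotypes are farthest apart on each of the 4 chromosomes, 6.14% against 4.64% on chromosome 19 and 4.34% against 5.43% on chromosome 4.

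The corresponding genotype pairs at the other codes gave different values, on all chromosomes together as well as on single ones. Over the whole lists, 26.4% of parent peaks and 15.4% of knockout peaks were without a counterpart in the pair coded 2 h. In the pair coded DMSO these shares were 11.6% and 35.2%. On chromosome 19 the parent-only share was 25.0% (22.7 to 27.4%) in the pair coded 2 h and 7.60% (5.86 to 9.81%) in the pair coded DMSO. The knockout-only share there was 6.12% (4.81 to 7.76%) at 2 h, whereas in the DMSO pair it was 32.1% (29.2 to 35.1%). On chromosome 4 the knockout-only share was 21.1% at 2 h and 29.9% at DMSO. The DMSO pair contains the parent list with fewest peaks, 14205, against 19289 in the knockout DMSO list. Whether the pairs differ beyond library spread was not tested, as each has 1 library a group.

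Crowded and isolated regions also separated the genotypes. For each peak the regions called in the other 4 libraries within 250 kb were counted, a measure added after the data were seen that does not use either list of the pair. In the quartile of parent peaks with fewest neighbours (median 3) 23.7% (22.6 to 24.9%) were parent-only, and in the quartile with most (median 18) 34.9% (33.7 to 36.2%). Knockout-only shares fell from 30.7% (29.4 to 32.0%) with a median of 3 neighbours to 11.3% (10.4 to 12.2%) with a median of 17. Among the strongest quartile of knockout peaks the share fell from 6.37% (93 of 1461) in the most isolated to 1.04% (9 of 868) in the most crowded class. Among the strongest quartile of parent peaks it went from 0.935% (14 of 1497) to 3.58% (42 of 1174). For the weakest quartile of parent peaks there was no steady order, with 60.5%, 66.1%, 68.6% and 64.8% from isolated to crowded. In the pair coded 2 h, parent-only shares ran from 25.5% to 27.7% and knockout-only shares from 21.5% to 10.4%, and in the DMSO pair from 15.4% to 9.32% and from 33.7% to 36.1%.

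Many differing peaks were called in other libraries of the genotype that lacked them here. Of the parent-only peaks, 2845 (43.6%, 42.4 to 44.8%) were present in the knockout DMSO or 2 h list. Of the knockout-only peaks, 1639 (44.0%, 42.4 to 45.6%) were present in the parent DMSO or 2 h list. For shared peaks these shares were far higher, at 96.5% in the parent list and 97.7% in the knockout list. A further 1968 parent-only peaks (30.1%) and 1258 knockout-only peaks (33.8%) were in no other list, with median widths of 198 and 177 bp. Of the shared peaks, 0.954% in the parent list and 0.978% in the knockout list were in no list outside the pair. The parent 2 h list held 61.4% of parent-only peaks (60.3 to 62.6%), and the parent DMSO list 11.9% (11.1 to 12.7%). For shared parent peaks these values were 97.0% and 76.8%, so the short DMSO list lacked more of both classes. Knockout 2 h and DMSO lists held 43.8% and 36.7% of knockout-only peaks.

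Peaks called in the parent lists coded as treated and nowhere else made up 23.9% of the parent-only set. These 1560 peaks (22.9 to 24.9%) were in the parent lists coded 4 h and 2 h and in neither DMSO list nor the knockout 2 h list. The like pattern in knockout cells, 4 h and 2 h but no DMSO or parent list, counted 368 of the knockout-only peaks (9.88%, 8.96 to 10.9%). By the recorded samples, the 1560 peaks would be in the parent 2 h and DMSO lists. They would be absent from both 4 h lists and the knockout DMSO list. The 368 peaks would be in the knockout 2 h and DMSO lists, and absent from the knockout 4 h list and every parent list. Both counts depend on list lengths, and they are not alike in stringency. By code, each pattern needs absence from both DMSO lists, of 14205 (parent) and 19289 (knockout) peaks. The parent pattern also needs absence from the knockout 2 h list (20894 peaks), and the knockout pattern from the longer parent 2 h list (23665 peaks). Peaks in all 3 lists of 1 genotype and none of the other numbered 109 in parent cells (1.67%) and 235 in knockout cells (6.31%). These counts are not alike in stringency either. The parent one needs presence in the DMSO list of 14205 peaks, and the knockout one in that of 19289 peaks. A total of 357 parent-only and 306 knockout-only peaks were present in every list except the 1 that lacked them here.

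**Figure D5:**
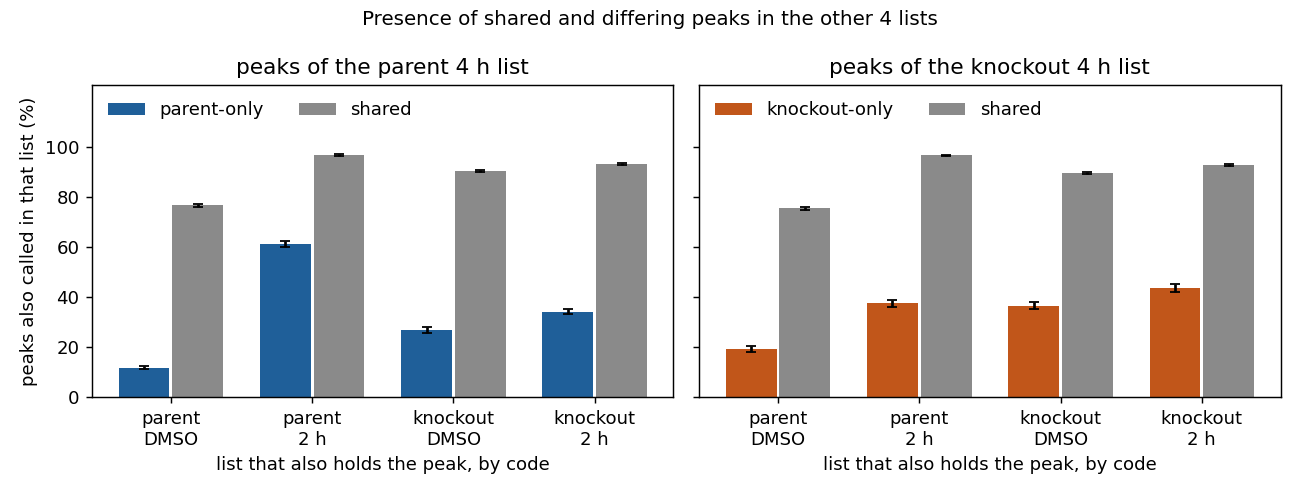
Percent of peaks (vertical axis) of the parent 4 h list (left) and of the knockout 4 h list (right) that overlap a peak of each of the other 4 lists (horizontal axis); coloured bars are differing and grey bars shared peaks, with Wilson 95% intervals. The parent 2 h list holds 61.4% of parent-only peaks and the parent DMSO list 11.9%, while the knockout-only peaks are spread more evenly, from 19.3% to 43.8%.

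The highest wide parent-only peaks were found on chromosomes 16, 12, 19, 1 and 6. Among peaks of at least 300 bp the highest fold was 15.3, at chromosome 16, 15187882 to 15188328 (447 bp, 56 reads at the summit); this site was also called in the 4 lists outside the pair, at 3.82 and 11.2-fold in the parent DMSO and 2 h lists and 5.66 and 3.50-fold in the knockout DMSO and 2 h lists. Chromosome 12, 124155508 to 124155865, reached 14.7-fold and was also called in both other parent lists and in the knockout 2 h list (5.70-fold). Chromosome 19, with 499 of all 6528 parent-only peaks, supplied 3 of the 10 highest. They lay at 52511247 to 52511758 (14.7-fold), 53104159 to 53104806 (14.2-fold) and 55517381 to 55517719 (12.5-fold).

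The presence of these 10 highest wide parent-only peaks in other lists was uneven. All 10 were in the parent 2 h list, 4 in the parent DMSO list, 9 in the knockout 2 h list and 7 in the knockout DMSO list. Chromosome 1, 149577101 to 149577790 (690 bp), was 13.4-fold at 4 h and 9.51-fold at 2 h in parent cells, 5.07-fold at 2 h in knockout cells, and absent from both DMSO lists. Chromosome 6, 26457839 to 26458473 (12.5-fold), lay 55 bp from a knockout peak and counts as shared where a distance of 1 kb is allowed.

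Some parent-only regions were very wide. The widest were on chromosome 17, 37309244 to 37310813 (1570 bp, 5 summits, 6.65-fold) and 73029906 to 73031458 (1553 bp, 6 summits, 4.43-fold). Chromosome 2, 25563979 to 25565489, chromosome 9, 140344695 to 140346200, and chromosome 11, 63318109 to 63319601, followed at 1511, 1506 and 1493 bp. The chromosome 11 region was called in the 3 parent lists, at 4.02, 4.44 and 4.83-fold, and in no knockout list; the others were each in at least 1 other knockout list.

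Knockout-only peaks of at least 300 bp were ranked by fold in the same way. The 10 highest ranged from 9.57 to 11.01-fold and from 315 to 526 bp, and the nearest parent peak was 52162 to 855640 bp away. None of them lay on chromosomes 17, 19 and 22. These held only 53, 42 and 22 of all 3725 knockout-only peaks, so their absence from 10 peaks is not informative. Chromosome 5, 128323925 to 128324338, led at 11.01-fold, with the nearest parent peak 105624 bp away; it was called in the 4 lists outside the pair. Chromosome 6, 142872426 to 142872810 (10.6-fold), and chromosome 3, 169846334 to 169846656 (10.4-fold), were likewise absent from the parent 4 h list alone. Chromosome 4, 133540988 to 133541419 (10.2-fold), and chromosome 18, 26361658 to 26362124 (9.90-fold), were called in all 3 knockout lists. Both were also in the parent list coded DMSO, at 4.48 and 4.50-fold, and in neither parent list coded as treated. All 10 were held by both other knockout lists, 8 by the parent DMSO list and 7 by the parent 2 h list. The widest knockout-only peak, chromosome 4, 182161754 to 182162819 (1066 bp, 6.05-fold), lay 398 bp from a parent peak.

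Regions that followed genotype in all 6 lists numbered 109 in parent and 235 in knockout cells, and only the highest wide ones are given. In parent cells the highest of at least 300 bp were chromosome 16, 72821188 to 72821665, at 3.84, 6.64 and 10.1-fold in the lists coded DMSO, 2 h and 4 h, chromosome 12, 133464058 to 133464599 (5.98, 7.47 and 9.98-fold), and chromosome 13, 113228184 to 113228746 (4.29, 7.88 and 9.87-fold). Chromosome 19, 14516713 to 14517205 (3.86, 5.48 and 8.03-fold), and chromosome 6, 118228318 to 118228624 (3.67, 5.33 and 7.96-fold), came next. In each of these 5 the value was highest in the 4 h list, which is also the list by whose fold they were chosen. In knockout cells the highest was chromosome 7, 13840523 to 13840961, at 7.83, 7.97 and 9.52-fold. It was followed by chromosome 3, 110565765 to 110566105 (5.73, 5.91 and 7.83-fold), chromosome 15, 48332442 to 48332744 (6.62, 8.48 and 7.63-fold), chromosome 10, 38083393 to 38083799 (3.97, 5.28 and 7.51-fold), and chromosome 18, 19812100 to 19812494 (5.39, 5.49 and 6.82-fold). Fold values of different lists rest on different depths and backgrounds and are set side by side only to show that a peak was called.

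Peaks of highest fold at any width were very narrow. In the knockout list all 5 were between 129 and 160 bp wide, led by chromosome 7, 45291577 to 45291706, at 58.4-fold with 673 reads at the summit and no peak there in any other list. Chromosome 6, 119558557 to 119558703 (20.4-fold), was called in all 3 knockout lists (23.2-fold at DMSO, 17.9-fold at 2 h) and in no parent list. In the parent list 4 of 5 were no wider than 170 bp, and chromosome 10, 35310585 to 35310733 (20.3-fold), and chromosome 5, 146587514 to 146587645 (19.5-fold), were in that list alone. Peaks of 170 bp or less made up 21.1% of parent-only, 33.7% of knockout-only, 3.70% of shared parent and 7.71% of shared knockout peaks. No filter for repeated sequence was applied, and whether such peaks are open chromatin was not tested.

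Dense groups of differing peaks were mostly parent-only, but parent-only peaks were also more numerous in all, at 6528 against 3725. How many dense groups these totals alone would give was not tested. Of the 2478 segments of 1 Mb with a parent peak, 122 held at least 10 parent-only peaks, whereas 4 of 2575 held at least 10 knockout-only peaks. On chromosome 19, between 1 and 2 Mb, the parent 4 h list had 54 peaks, and the knockout 4 h list had 32. Of the parent peaks 25 were parent-only (46.3%, 33.7 to 59.4%), an interval that holds the 37.6% of the whole chromosome. The same segment held 24 and 51 peaks in the parent DMSO and 2 h lists and 37 and 39 in the knockout DMSO and 2 h lists. Chromosome 17, between 40 and 41 Mb, had 43 parent and 22 knockout peaks at 4 h, 42 and 34 at 2 h, and 17 and 26 at DMSO. The highest parent-only share in a segment with at least 10 such peaks was 76.9% (10 of 13), on chromosome X between 114 and 115 Mb.

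Runs of neighbouring parent peaks without any shared peak among them reached 12 on chromosome 7, 215426 to 644318, where the parent 4 h list had 12 peaks, and the other parent lists 1 (DMSO) and 5 (2 h). Knockout lists had 3 (DMSO), 2 (2 h) and 2 (4 h) peaks in that interval. On chromosome 19, 13094366 to 13261275, 11 consecutive parent peaks faced none in the knockout 4 h list, 4 in knockout DMSO and 2 in knockout 2 h. Both runs are short in length, at 428.9 and 166.9 kb.

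Knockout-only clusters were fewer and lay in other places. Chromosome 9, between 68 and 69 Mb, held 21 knockout peaks at 4 h, 17 of them knockout-only (81.0%), and 10 parent peaks. The other lists held 11 and 14 peaks there in parent cells (DMSO and 2 h) and 15 and 17 in knockout cells. Chromosome 4, between 49 and 50 Mb, held 15 knockout-only peaks among 68 (22.1%, 13.8 to 33.3%). That interval holds the 19.4% of the whole knockout list and the 27.8% of the whole chromosome. This segment was crowded in every list, with 59 peaks in each parent list and 64 (DMSO) and 63 (2 h) in the other knockout lists. The longest runs of knockout-only peaks counted 8, on chromosome 3, 174258008 to 176689624, and on chromosome 13, 93458243 to 94998093, each with 1 parent 4 h peak. On chromosome 3 the parent DMSO and 2 h lists held 7 and 6 peaks in that interval, and the knockout DMSO and 2 h lists 7 and 5. A run of 7 knockout-only peaks within 69.7 kb of chromosome 1, 143474254 to 143543943, faced no parent 4 h peak, and 1 peak in each of the other 4 lists. No filter for repeated sequence was applied, and whether these clusters are open chromatin particular to the knockout was not tested.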

How the data were processed

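ATAC-seq peak lists of 6 CCRF-CEM libraries were used, with 1 library a group. Tools named in the submitters' processing notes, without roles, are BWA 0.7.17, MACS2 2.1.2, Picard 2.9.2, SAMtools 1.8, Trim Galore 0.6.2 and Trimmomatic 0.39, with the build hg19. Not given in the sources used here are any shift for the transposase offset, read extension, duplicate handling and the background model, which can each move peak edges and numbers. Each deposited list carries 1 library code, so peaks were called per library.

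As deposited, the fold enrichment is a ratio of summit to local background. Significance was deposited as -log10 p and -log10 q of the peak caller, and the lowest -log10 q is 2. The score deposited by the authors is 10 times the -log10 q, truncated. Fold was used to describe and rank peaks within a list.

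Entries on chromosomes 1 to 22 and X were merged where they overlapped, keeping the highest fold; 0.504% of parent and 0.580% of knockout entries lay on the mitochondrial genome or chromosome Y and were left out. Overlap of 1 bp or more was computed in Python 3.11.15 with pandas 2.3.3, and Wilson intervals came from statsmodels 0.14.6. Coordinates count from 1. Read totals were not used here. Pileup and background were solved from fold and p under a Poisson model with background of at least 1, and were whole within 0.05 for all but 1 entry in each list of the pair. Overlap, merging and recovery were tested on simulated data.

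Named peaks are, per direction, the 10 of highest fold of at least 300 bp, the 5 of highest fold at any width, the 5 widest, and the 5 of highest fold of at least 300 bp that follow genotype in all lists; some are given as ranges. Lists, rules and comparisons were chosen with earlier results of these data known. Gene lists and motif searches that had been planned were not run, since no hg19 annotation or genome was used here. Alternatives were a stricter q, other overlap rules, equal lengths, unmerged entries, removal of narrow peaks and placement by recorded sample.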

Additional observations from a re-analysis of the deposited data

Results flagged for a closer look

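The genotype contrast in peak number took opposite directions at different codes. The log2 ratio of knockout to parent peaks was 0.44 (0.41 to 0.47) in the pair coded DMSO, -0.18 (-0.21 to -0.15) in the pair coded 2 h and -0.17 (-0.20 to -0.15) in the pair coded 4 h of camptothecin. With 1 library a group, the difference between the pairs was not tested. The pair coded DMSO includes the parent list of 14205 peaks, the fewest of the 6.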

How the results depend on the processing

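Placement by the recorded samples turned the log2 ratio of peak numbers to 0.44, with 1643 parent-only and 6794 knockout-only peaks. The ratio stayed negative at -log10 q of at least 5 in both lists (-0.36), with entries as deposited (-0.27) and without peaks of 170 bp or less (-0.23). Knockout-only peaks numbered 1896 with the stricter q in both lists. With it in the counted list alone, 3470 parent-only and 1308 knockout-only peaks remained without a counterpart. Other settings kept both counts within 1.5 times. With the stricter q in both lists, the whole-list shares were 33.6% parent-only and 14.0% knockout-only. On chromosome 19 the same limit gave a parent-only share of 42.3% and a knockout-only share of 1.95%. On chromosome 4 it gave a knockout-only share of 21.9%. In lists of equal length, the parent-only shares were 32.2% on chromosome 19 and 16.7% on chromosome 4, and the knockout-only share on chromosome 4 was 32.2%. The cause of these shifts was not tested. No paired analysis was possible because each group is 1 library. Leaving out a library was not possible for the same reason. Gene and sequence alternatives were not run, since no hg19 annotation or genome was used here.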
